A study of Homo sapiens with 22 samples.

Results

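The nuclear-encoded subunit genes of the mitochondrial respiratory chain and ATP synthase were examined in MDA-MB-231 cells with and without knockdown of LOXL2. Members were the protein-coding genes whose symbols begin with NDUFA, NDUFB, NDUFC, NDUFS or NDUFV and a number, with UQCR, with ATP5, or with COX and a number from 4 to 8, together with SDHA, SDHB, SDHC and SDHD. The rule reads symbols alone, and the set was proposed with earlier results of these data known. It gave 89 of the 57820 genes in the count files, and 79 of them were among the 15602 genes that passed a filter on low counts and were tested. Complex I had 37 members (35 tested), complex II had 4 (4 tested), complex III had 9 (9 tested), complex IV had 18 (13 tested) and complex V had 19 (18 tested). The other 2 members, NDUFC2-KCTD14 and ATP5MF-PTCD1, are readthrough genes that join neighbouring genes and were put in no complex.

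MDA-MB-231 is an established human breast cancer line of the triple-negative kind, that is, one without estrogen receptor, progesterone receptor or HER2 amplification. In the shLOXL2 group a short hairpin RNA targeted LOXL2, the gene of lysyl oxidase-like 2, an enzyme that oxidises lysine, and the shControl group had a control hairpin. RNA-seq and ATAC-seq, which maps DNA open to the Tn5 transposase, each had 3 libraries per group. The labels give no time after infection, do not say whether the cells were clones or pools, and do not say whether replicates were separate cultures, so p-values measure the spread between these libraries, which may be technical.

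Complex I (NADH dehydrogenase) and complex II (succinate dehydrogenase) pass electrons to ubiquinone, complex III (cytochrome bc1) passes them to cytochrome c, and complex IV (cytochrome c oxidase) passes them to oxygen. Complexes I, III and IV pump protons across the inner mitochondrial membrane, and complex V (ATP synthase) uses their return to make ATP. Complexes I, III, IV and V each hold both mitochondrially and nuclear-encoded subunits, while complex II is nuclear-encoded throughout. In many tumour cells the chain is still needed to regenerate the oxidised cofactors used in biosynthesis.

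Each RNA-seq library held between 40254464 and 49375803 counts. LOXL2 fell from 412 ± 33.1 to 123 ± 21.3 CPM (counts scaled to library size; SD, n = 3), in the direction of the labels. Of the line's markers, VIM (3733 CPM in shControl), AXL (1016), CD44 (918), EGFR (353) and ZEB1 (116) were present, CDH1 (0.295) was near 0, EPCAM lay between 12.1 and 14.2 over all libraries, and ESR1 and PGR were at 0.0147 and 0.114. ERBB2 was present at 92.9 CPM. Markers of leukocytes (PTPRC, 0.415) and liver (ALB, 0.0979) were near 0. Libraries of the same group differed by more than sampling noise in every pair (chi-square of the counts, 4.86 to 19.7 as a mean over genes, where 1 is sampling noise). The highest values, 17.3 and 19.7, both involved shControl replicate 3, so counts of members that fell, over the chain and by complex, are also given without it where leaving it out moved them.

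Across the whole chain, 24 tested members fell and 2 rose after LOXL2 knockdown, at an adjusted p below 0.05 (edgeR's quasi-likelihood test, Benjamini-Hochberg adjustment over all tested genes). This call was made for 30.4% of tested members in the lower direction, against 21.3% of all tested genes, and for 2.53% in the higher direction, against 21.6%. In either direction it was made for 32.9% of members and 42.9% of all tested genes. The chain genes are abundant, and among genes with an average of at least 5 log2 CPM the calls covered 55.9% of all genes in either direction, 29.1% higher and 26.8% lower. For the 64 members above that level the shares were 32.8%, 3.12% and 29.7%. The members thus had a share of falls close to that of other abundant genes and far fewer rises.

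The changes were small. The median log2 fold change was -0.10 over the tested members and -0.0032 over all tested genes. A value below 0 was found for 61 of 79 members and for 7866 of 15602 tested genes. Among called genes the median size of the change was 0.23 log2 for members and 0.36 for all genes. Only 4 members, or 5.06%, changed by more than 0.5 log2 in either direction, against 16.3% of all tested genes. These were COX7C, COX8A, NDUFB3 and ATP5MC2. The 3 shLOXL2 values lay below the 3 shControl values for 33 members (41.8%, against 26.6% of all tested genes) and above them for 3 (3.8%, against 27.3%). This count was not made among abundant genes alone, so the part of expression level in it was not tested.

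**Figure D1:**
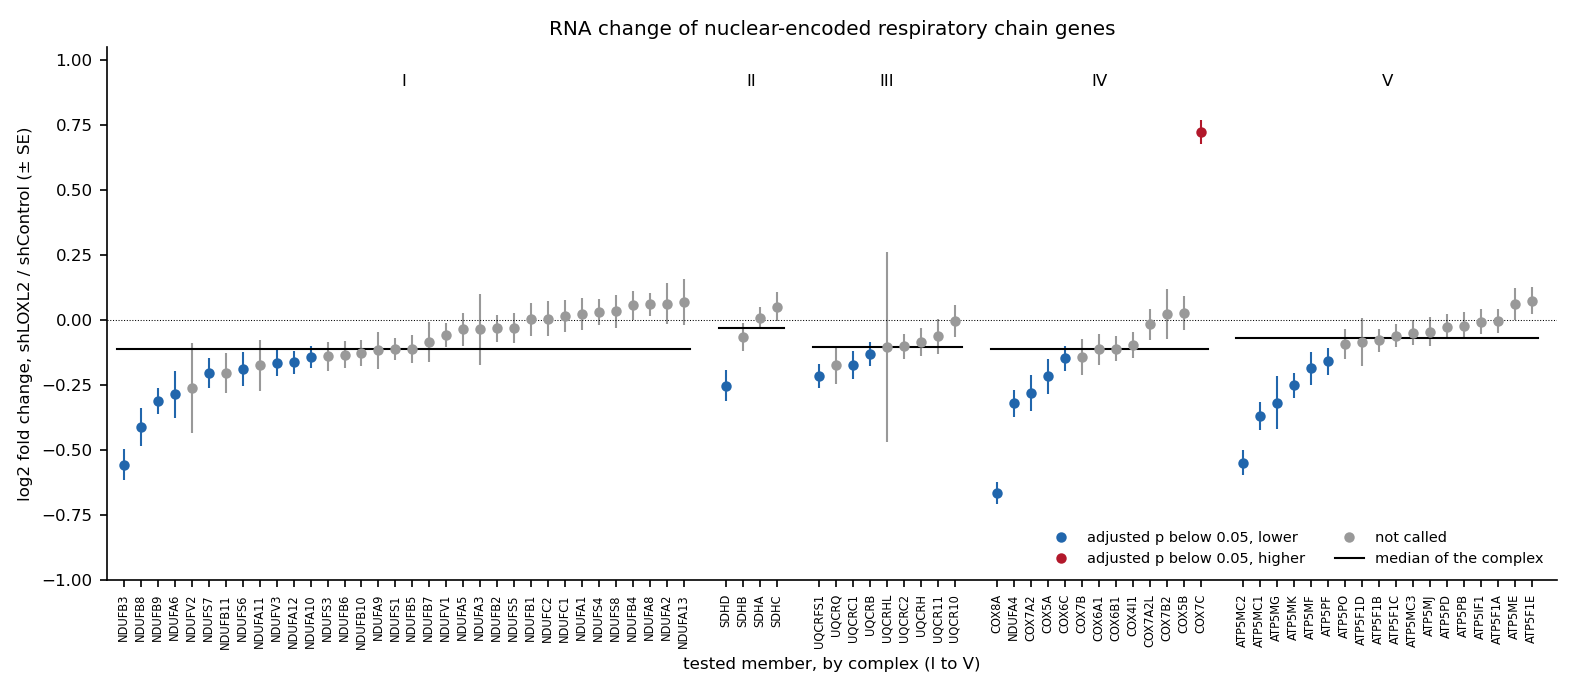
Log2 fold change of shLOXL2 over shControl (vertical axis) for 78 of the 79 tested members, ordered within complexes I to V; points are edgeR estimates, bars are ± 1 standard error, and horizontal lines are medians of all tested members of a complex. Most points lie slightly below 0, with COX8A lowest at -0.67 and COX7C highest at 0.72, both in complex IV.

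Summed over all tested members, shControl replicates 1, 2 and 3 held 7786, 7550 and 7358 CPM, and shLOXL2 replicates 1, 2 and 3 held 7068, 6959 and 7391 CPM. The groups overlapped in this sum, since shControl replicate 3 lay below shLOXL2 replicate 3. The count of members that fell depended on single libraries, being 35 without shControl replicate 3, 13 without shLOXL2 replicate 1 and 14 without shLOXL2 replicate 2. Calls over all genes in either direction also changed in these fits, from 42.9% to 44.4%, 34.5% and 34.3%. The share of falls alone over all genes was not counted in these fits. In all of the alternative fits at the same threshold, 13 members were called each time: NDUFB3, NDUFB8, NDUFB9, NDUFA12, SDHD, UQCRFS1, COX8A, COX7C, COX7A2, NDUFA4, ATP5MC1, ATP5MC2 and ATP5MK. The same count was not made over all tested genes, so whether members keep their calls more or less often than other genes is not known.

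The members also share a short transcript. The median length of the canonical transcript was 758 bases for tested members and 2987 for all tested genes, at a similar GC content (46.9% and 48.0%). Over all annotated exons the median lengths were 2615 bases for tested members and 4959 for all tested genes. A smooth of expression on this all-exon length was removed from each library. The median over members was then -0.05, and 19 members were lower and 1 higher. No correction used the canonical length, and the part of transcript length in the result was not tested further. The strand setting of the counts is not given in the sources used here, and 49 of the 79 tested members overlap another annotated gene. Of the 30 that overlap none, 8 were called: NDUFA12, NDUFS6, NDUFV3, UQCRC1, UQCRFS1, COX5A, COX7A2 and NDUFA4. Over all tested genes the call was made for 42.9% in either direction. The share among all genes that overlap none was not counted, and the part of overlap in the calls was not tested. In RNA from whole cultures, less RNA per cell and fewer cells that express a gene cannot be told apart.

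In complex I, 9 of 35 tested members fell, 1 rose and 25 were not called, with a median log2 fold change of -0.11. The falls made 25.7% of its tested members and the rises 2.86%. Over all tested genes these shares were 21.3% and 21.6%, and among abundant genes 26.8% and 29.1%. The count of falls was 14 without shControl replicate 3, 4 without shLOXL2 replicate 1 and 5 without shLOXL2 replicate 2. The largest falls were among accessory subunits, which surround the catalytic core and are needed for assembly and stability. NDUFB3, an accessory subunit of the membrane arm, measured 36.0, 33.2 and 33.2 CPM in shControl and 23.9, 22.9 and 22.8 CPM in shLOXL2. The groups were well apart, and the difference was -0.56 log2 (SE 0.06, edgeR adjusted p 2.31e-05), so that the level fell by 32.1%. NDUFB8, a membrane arm subunit often used as an indicator of assembled complex I, went from 25.0, 24.7 and 21.9 CPM to 17.1, 17.5 and 19.1 CPM (-0.41 log2, SE 0.07, edgeR adjusted p 0.000985). NDUFB9, another membrane arm subunit, measured 42.2, 41.7 and 42.2 CPM in shControl and 34.6, 33.3 and 33.7 CPM in shLOXL2 (-0.31 log2, SE 0.05). In each of these 3 genes every shLOXL2 library lay below every shControl library. NDUFA6, an accessory subunit of the peripheral arm, was at 10.9 ± 1.03 and 8.89 ± 0.35 CPM (-0.29 log2, edgeR adjusted p 0.0248). That call was lost without shControl replicate 1, shLOXL2 replicate 1 or shLOXL2 replicate 2, with an adjusted p of up to 0.0861.

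The 7 nuclear core subunits of complex I carry the flavin and iron-sulfur clusters that move electrons from NADH to ubiquinone. Of those described here, NDUFS7 fell and NDUFS1, NDUFS3, NDUFS8, NDUFV1 and NDUFV2 were not called. NDUFS7, which holds the last cluster before ubiquinone, measured 38.2, 38.5 and 36.3 CPM in shControl and 31.5, 31.6 and 34.8 CPM in shLOXL2 (-0.21 log2, SE 0.06, edgeR adjusted p 0.0145). That call was lost without shControl replicate 2, shLOXL2 replicate 1 or shLOXL2 replicate 2 (adjusted p up to 0.0654). NDUFS1, the large subunit with several of the clusters, was at 167 ± 5.67 and 154 ± 0.58 CPM, groups that did not overlap, and just missed the threshold (edgeR adjusted p 0.0543). NDUFS3 differed by -0.14 log2 (adjusted p 0.0598), NDUFV1, the NADH-oxidising subunit, by -0.06 (adjusted p 0.348) and NDUFS8 by 0.03 (adjusted p 0.713).

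NDUFV2, another core subunit, was almost uncounted. Its 6 libraries held 55, 76, 67, 52, 57 and 47 counts, in the order shControl 1 to 3 and shLOXL2 1 to 3, while its partner NDUFV1 in the same flavoprotein module held 34154 over all libraries. The annotated pseudogene NDUFV2P1 held 716 counts, or 66.9% of the 2 genes together, so the count of this gene is uncertain. Its difference of -0.26 log2 (SE 0.17, adjusted p 0.246) became 0.03 when the pseudogene counts were added. NDUFA7, a peripheral arm accessory subunit, had 63 counts over all libraries and was not tested. Another annotated gene on the same strand overlaps it, and shared reads were not resolved here. Among other members, pseudogenes held 10.7% of the pool for SDHA and 2.4% for COX6A1, and at most 0.72% for every other tested member.

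The remaining complex I calls were small falls in NDUFS6 (-0.19 log2), NDUFV3 (-0.17), NDUFA12 (-0.16) and NDUFA10 (-0.14). NDUFA12, an accessory subunit that docks late in assembly, measured 79.8 ± 1.53 CPM in shControl and 71.3 ± 1.77 CPM in shLOXL2, with groups apart. It was called in every fit. NDUFV3 lost the call when any single library other than shControl replicate 3 was left out. NDUFS6, whose groups overlapped, lost it without shControl replicate 1 or 3 or shLOXL2 replicate 1 or 2, and after the length correction. Among the fits with 1 library left out, NDUFA10 lost it only without shLOXL2 replicate 1. NDUFA1, an essential membrane subunit, was at 94.5 ± 7.86 and 95.9 ± 4.13 CPM, with overlapping groups.

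Complex II had 1 fall (25.0% of its members, against 21.3% of all tested genes) and 3 members that were not called. SDHD, one of its membrane anchors, measured 60.9, 62.0 and 61.7 CPM in shControl and 54.7, 47.0 and 53.0 CPM in shLOXL2 (-0.25 log2, SE 0.06, edgeR adjusted p 0.00485). The control libraries lay close together and all above the knockdown libraries. SDHC, the other anchor, was at 28.7 ± 1.13 and 29.7 ± 0.195 CPM (0.05 log2, SE 0.06). The flavoprotein SDHA was at 146 ± 0.573 and 146 ± 4.88 CPM, and the iron-sulfur subunit SDHB at 106 ± 4.25 and 101 ± 6.28 CPM (-0.07 log2, SE 0.05). SDHA, SDHB and SDHC had overlapping groups.

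Complex III had 3 falls among 9 tested members, and all 9 estimates were below 0, with a median of -0.10 log2. Over all tested genes 7866 of 15602 estimates were below 0. Those of UQCR10 (-0.0047 log2) and UQCRHL (-0.10, SE 0.365) changed sign in some alternative fits. The falls made 33.3% of complex III members, against 21.3% of all tested genes and 26.8% of abundant genes. The count of falls was 6 without shControl replicate 3 and 1 without shControl replicate 1, shControl replicate 2 or shLOXL2 replicate 1. UQCRFS1, the Rieske iron-sulfur protein that receives electrons from ubiquinol, measured 80.6, 85.3 and 81.8 CPM in shControl and 72.4, 68.5 and 72.4 CPM in shLOXL2 (-0.22 log2, SE 0.05, edgeR adjusted p 0.00308). Its groups were apart, and it was called in every fit. UQCRC1, a core protein on the matrix side, was at 166 ± 9.45 and 147 ± 6.54 CPM (-0.17 log2, edgeR adjusted p 0.0226), and its partner UQCRC2 at 139 ± 6.19 and 129 ± 4.95 CPM (-0.10 log2, adjusted p 0.119). UQCRB, a small matrix-side subunit, fell by 0.13 on the log2 scale (edgeR adjusted p 0.0327). The call of UQCRC1 was lost without shControl replicate 1 or 2 or shLOXL2 replicate 1 or 2 (adjusted p up to 0.0976), and that of UQCRB without shControl replicate 1 or 2 or shLOXL2 replicate 1 or 3 (adjusted p up to 0.133).

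Complex IV held the largest change in each direction among all members. Of its 13 tested members 5 fell, 1 rose and 7 were not called, with a median of -0.11 log2. Falls and rises made 38.5% and 7.69% of them. The shares were 21.3% and 21.6% over all tested genes, and 26.8% and 29.1% among abundant genes. The count of falls was 8 without shControl replicate 3 and 3 without shControl replicate 2, without shLOXL2 replicate 2, or after the length correction. COX8A and COX7C are both small single-helix subunits of the membrane part. COX8A (chromosome 11, 63742092 to 63744015, GRCh37) measured 144, 149 and 143 CPM in shControl and 91.2, 89.3 and 94.0 CPM in shLOXL2. Its groups were far apart, and the level fell by 37.0% (-0.67 log2, SE 0.04, edgeR adjusted p 1.16e-06). COX7C (chromosome 5, 85913745 to 85916779) measured 90.8, 93.9 and 87.9 CPM in shControl and 150, 146 and 154 CPM in shLOXL2. It stood out from the rest of the chain, 65.0% higher in the knockdown with no overlap (0.72 log2, SE 0.05, edgeR adjusted p 9.1e-07). Both kept their calls in every fit, with log2 changes from -0.69 to -0.62 for COX8A and from 0.70 to 0.79 for COX7C. An annotated microRNA gene, MIR3607, lies within the COX7C locus on the same strand, and COX8A overlaps another annotated gene on the same strand, so reads of these could be pooled with them.

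The promoter windows of this pair are shown because they belong to the members with the largest opposite changes, and they were chosen after those values were seen. They run from 250 bases before to 50 bases after the RefSeq gene start, in a table of the GRCh38.p14 build, and were found by exact match in GRCh37 at chr5:85913508-85913807 (plus strand) for COX7C and chr11:63741842-63742141 (plus strand) for COX8A. Capitals mark words searched for on both strands, which are listed with their shares below. COX8A holds 2 CCAAT words and 1 ETS word, 15 bases before the start, and COX7C holds none of the words searched. Both windows carried an ATAC-seq peak in all 6 libraries.
COX7C: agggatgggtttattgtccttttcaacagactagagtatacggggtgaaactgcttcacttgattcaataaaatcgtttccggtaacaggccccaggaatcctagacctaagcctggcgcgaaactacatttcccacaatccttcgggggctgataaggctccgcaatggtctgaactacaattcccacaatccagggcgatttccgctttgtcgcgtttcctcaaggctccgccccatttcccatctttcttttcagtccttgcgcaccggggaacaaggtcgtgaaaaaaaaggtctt
COX8A: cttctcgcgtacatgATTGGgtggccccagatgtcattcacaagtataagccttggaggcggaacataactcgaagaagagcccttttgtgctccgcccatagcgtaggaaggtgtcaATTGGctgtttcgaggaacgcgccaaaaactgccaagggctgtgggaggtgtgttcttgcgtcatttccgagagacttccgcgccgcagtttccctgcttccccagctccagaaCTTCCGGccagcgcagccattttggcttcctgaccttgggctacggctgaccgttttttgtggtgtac

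The other falls in complex IV were COX7A2, COX5A, COX6C and NDUFA4. COX7A2, the isoform of subunit 7A that most tissues use, measured 194, 167 and 158 CPM in shControl and 137, 142 and 147 CPM in shLOXL2 (-0.28 log2, SE 0.07, edgeR adjusted p 0.00608). The control libraries spread widely, but all lay above the knockdown libraries. NDUFA4, which was first assigned to complex I by name and is a subunit of complex IV, measured 96.6, 87.2 and 88.6 CPM and 75.4, 71.2 and 71.5 CPM (-0.32 log2, SE 0.05, edgeR adjusted p 0.000485). COX5A, one of the matrix-side subunits, fell by 0.22 on the log2 scale (edgeR adjusted p 0.022), a call lost without shControl replicate 2, without shLOXL2 replicate 2 and after the length correction. COX6C fell by 0.15, a call lost when any single library other than shControl replicate 3 was left out. COX4I1, the main isoform of the largest nuclear-encoded subunit, was at 182 ± 7.96 and 170 ± 6.45 CPM (-0.10 log2, adjusted p 0.132). COX7A2L, which takes part in joining complexes III and IV into supercomplexes, was at 118 ± 7.27 and 117 ± 7.42 CPM, with overlapping groups.

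**Figure D2:**
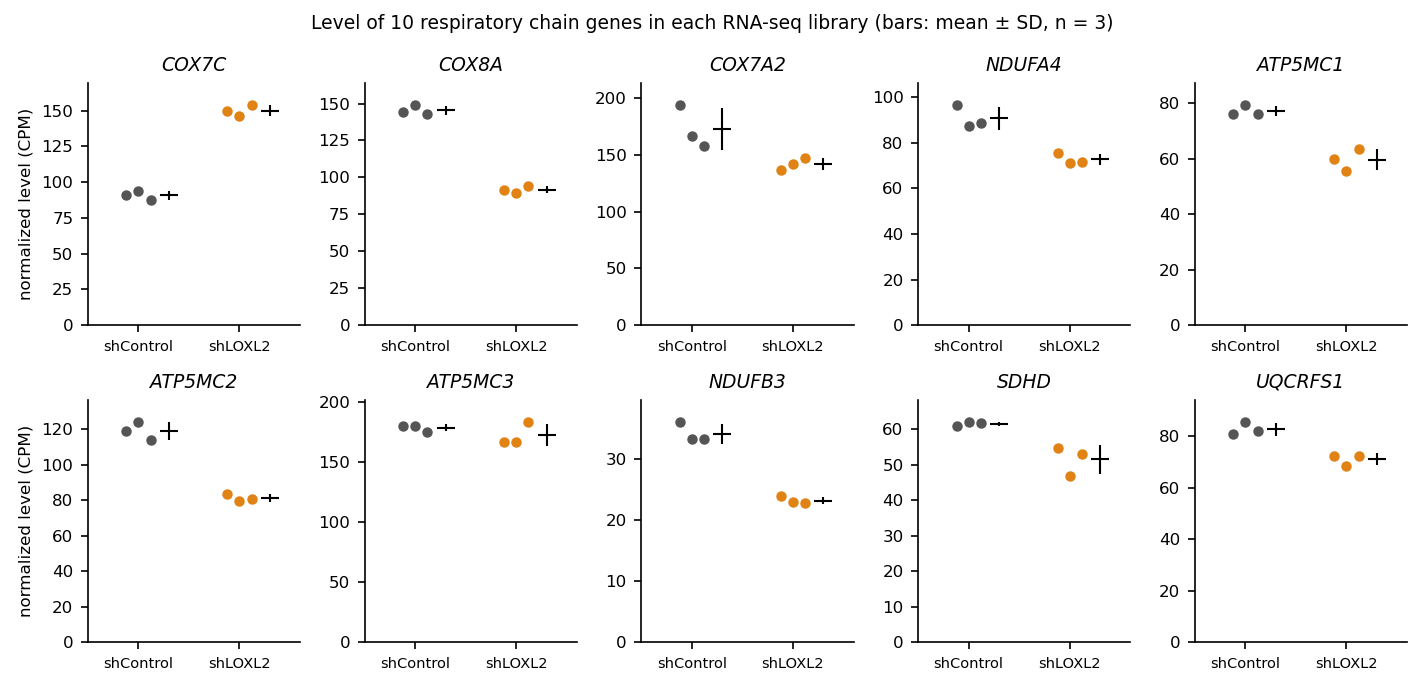
Normalized level in CPM (vertical axis, from 0) of 10 members in each of the 3 shControl and 3 shLOXL2 RNA-seq libraries; crosses give mean ± SD. COX7C was near 91 CPM in shControl and 150 in shLOXL2, COX8A went the other way from 145 to 91.5, and ATP5MC3 alone among those drawn has overlapping groups.

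Complex V had 6 falls, no rise and 12 members that were not called, with a median of -0.07 log2. The falls made 33.3% of its tested members, against 21.3% of all tested genes and 26.8% of abundant genes. The count of falls was 3 without shControl replicate 1, shLOXL2 replicate 1 or shLOXL2 replicate 2. The falls lay in the membrane part of the enzyme, apart from 1 in the peripheral stalk, ATP5PF. None of the 5 genes of the catalytic F1 head was called, with log2 changes from -0.09 to 0.07. ATP5F1B, its catalytic beta subunit, was at 814 ± 14.0 and 771 ± 21.3 CPM, groups that did not overlap (-0.08 log2, SE 0.04, edgeR adjusted p 0.176). ATP5F1A, the alpha subunit, was at 603 ± 10.2 and 601 ± 23.5 CPM. ATP5F1C, ATP5F1D and ATP5F1E, of the central stalk, had differences of -0.06, -0.09 and 0.07 log2. No test compared the head with the membrane part.

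The c-ring, the rotor that protons turn, is encoded by 3 genes whose mature proteins are the same and differ in their import sequences. ATP5MC1 measured 75.9, 79.3 and 76.2 CPM in shControl and 59.8, 55.7 and 63.5 CPM in shLOXL2 (-0.37 log2, SE 0.05, edgeR adjusted p 0.000257). ATP5MC2 measured 119, 124 and 114 CPM and 83.8, 79.5 and 80.6 CPM (-0.55 log2, SE 0.05, edgeR adjusted p 5.97e-06). ATP5MC3, with the most counts of the 3, measured 180, 180 and 175 CPM and 167, 167 and 183 CPM (-0.05 log2, SE 0.05, adjusted p 0.444). So 2 of the 3 c-ring genes fell with groups apart, and the groups of ATP5MC3 overlapped. The difference between the c-ring genes was not tested.

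The promoter windows of the 2 c-ring genes that fell are shown to compare them with each other, and were chosen after their values were seen. They lie at chr17:46969899-46970198 (plus strand) for ATP5MC1 and chr12:54069818-54070117 (minus strand) for ATP5MC2 in GRCh37, from the same RefSeq table, with searched words in capitals. ATP5MC1 has 4 CCAAT words, at 179, 76, 46 and 20 bases before the start, and none of the others. ATP5MC2 has 1 NRF1 word, 36 bases before the start, so the 2 windows share no searched word. Both had an ATAC-seq peak in all 6 libraries. The RefSeq promoter table has no entry for ATP5MC3.
ATP5MC1: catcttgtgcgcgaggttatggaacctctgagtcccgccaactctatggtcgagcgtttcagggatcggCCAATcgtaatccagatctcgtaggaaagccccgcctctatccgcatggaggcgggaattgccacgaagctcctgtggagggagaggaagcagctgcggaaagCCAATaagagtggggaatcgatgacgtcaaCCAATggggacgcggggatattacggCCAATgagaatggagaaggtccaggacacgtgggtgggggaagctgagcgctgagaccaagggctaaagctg
ATP5MC2: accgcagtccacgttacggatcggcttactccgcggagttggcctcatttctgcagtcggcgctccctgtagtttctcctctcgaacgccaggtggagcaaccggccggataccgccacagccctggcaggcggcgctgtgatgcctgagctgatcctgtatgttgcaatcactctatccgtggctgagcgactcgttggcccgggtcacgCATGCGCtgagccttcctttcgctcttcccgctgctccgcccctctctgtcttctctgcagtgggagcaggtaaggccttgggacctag

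Of the 5 small membrane subunits of ATP synthase, which help the enzyme form dimers and shape the inner membrane, 3 fell. ATP5MK measured 108, 101 and 99.1 CPM in shControl and 88.0, 83.5 and 87.6 CPM in shLOXL2 (-0.25 log2, SE 0.05, edgeR adjusted p 0.00152), with groups apart and a call in every fit. ATP5MG fell by 0.32 on the log2 scale, from 12.7 ± 0.653 to 10.2 ± 1.38 CPM, and lost its call without shControl replicate 1, shLOXL2 replicate 1 or shLOXL2 replicate 2 (adjusted p up to 0.0994). ATP5MF fell by 0.19 and lost its call without shControl replicate 1 or 2 or shLOXL2 replicate 1 or 2. Of the 4 peripheral stalk genes, ATP5PF fell by 0.16 on the log2 scale, a call lost without shControl replicate 1 or any shLOXL2 replicate, and ATP5PB, ATP5PD and ATP5PO were not called. ATP5IF1, the inhibitor that stops the enzyme from running in reverse, was at 78.2 ± 3.27 and 77.7 ± 2.47 CPM.

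Levels of different members can be compared only per length. Per kilobase of all annotated exons, the highest member in shControl was ATP5F1B in complex V (364 ± 6.26 CPM per kb), followed in the other complexes by COX8A in complex IV (294 ± 7.23), NDUFA1 in complex I (225 ± 18.7), UQCR10 in complex III (57.0 ± 0.841) and SDHB in complex II (43.4 ± 1.74). The lowest tested member of each complex was NDUFV2 in I (0.55 ± 0.0538), SDHC in II (15.1 ± 0.592), UQCRHL in III (0.297 ± 0.0995), COX7B in IV (5.92 ± 0.125) and ATP5MG in V (1.52 ± 0.0781). Many of these loci have long rare exons, and per kilobase of the canonical transcript the order changes. ATP5F1B was still highest in complex V (463 ± 7.97) and SDHB in complex II (105 ± 4.19), while NDUFS5, UQCRH and COX7A2 were highest in complexes I, III and IV. Median levels by complex were 60.8 CPM per kb in I, 50.0 in II, 60.7 in III, 132 in IV and 118 in V on the canonical length, against 12.7, 19.4, 30.3, 48.4 and 36.3 over all exons. Complexes IV and V had the higher medians on both lengths.

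**Figure D3:**
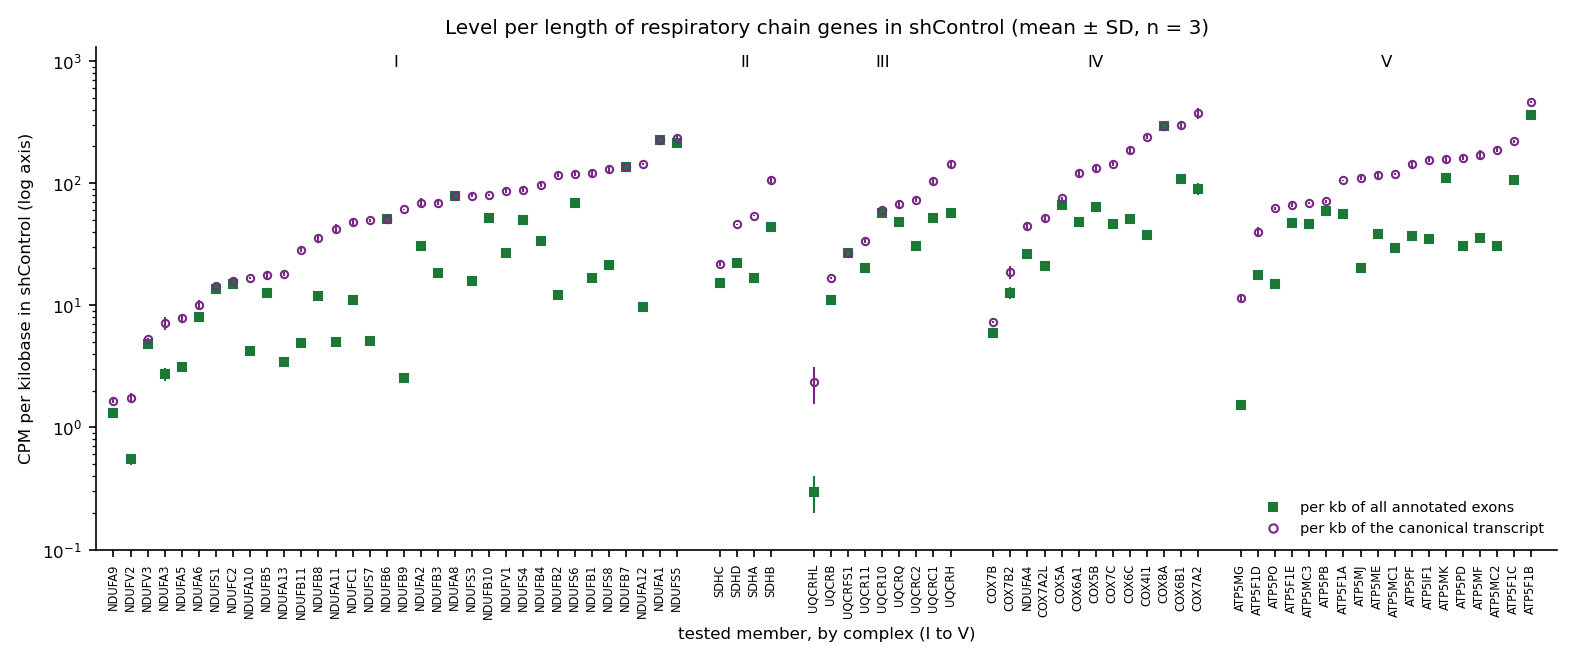
Mean level in shControl ± SD (n = 3) of 78 of the 79 tested members in CPM per kilobase, on a log axis, by complex; squares divide by all annotated exons and circles by the canonical transcript. ATP5F1B is highest at 364 (all exons) and 463 (canonical), and UQCRHL is lowest over all exons at 0.297.

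Several subunits have a second gene used in particular tissues or conditions, and 9 such members were followed. COX6A2 and COX7A1 are the heart and muscle isoforms, COX4I2 is known from lung and low oxygen, COX6B2, COX7B2 and COX8C from testis, and NDUFA4L2 is induced by low oxygen. COX4I2, COX6A2 and COX8C had 0 counts in all 6 libraries, which allows up to 0.0116 CPM (3 counts over all libraries, counting error only). COX7A1 had 1 count, ATP5MGL 3, NDUFA4L2 8 and COX6B2 19 over all libraries, and none of these 7 was tested. COX7B2 was the exception, at 11.2, 10.8 and 8.97 CPM in shControl and 10.6, 10.1 and 10.9 CPM in shLOXL2, with overlapping groups (0.02 log2, SE 0.10). UQCRHL, a near copy of UQCRH whose reads may be shared with it, was at 0.646 ± 0.217 and 0.61 ± 0.30 CPM. None of the 9 had an ATAC-seq peak within 1 kb of its start in any library, COX7B2 included. The readthrough genes NDUFC2-KCTD14 and ATP5MF-PTCD1 had 0 and 14 counts.

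Open chromatin at the members was common in both groups. Peaks within 1 kb of the canonical transcript start were present in at least 2 of 3 libraries for 70 of 79 tested members in shControl (88.6%, against 75.7% of 12803 tested protein-coding genes) and for 75 in shLOXL2 (94.9%, against 82.8%). Around the outermost annotated gene start the counts were 64 and 66, or 81.0% and 83.5%, against 70.6% and 77.5%. The number of listed peaks was 27099, 45416 and 36967 in shControl and 47232, 49614 and 55592 in shLOXL2, and read depths are unknown, so the counts of open promoters are not compared between the groups. By library, 59, 75 and 69 members had a canonical start peak in shControl and 74, 75 and 74 in shLOXL2, where the lowest count belongs to the shortest list. With equally long lists, the counts at the gene start were 53 in shControl (67.1%, against 59.2% of all tested protein-coding genes) and 43 in shLOXL2 (54.4%, against 53.9%), so that the shLOXL2 share of members was near that of all genes. At the canonical start 57 members had a peak in every library.

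The members NDUFA13, NDUFV1, NDUFC2, UQCRC1 and ATP5MF had a canonical start peak in at least 2 shLOXL2 libraries and fewer than 2 shControl libraries, and no member had the reverse. NDUFA7, untested for RNA, had a peak in all 3 shLOXL2 libraries and no shControl library. Of these genes UQCRC1 and ATP5MF fell in RNA, and NDUFA13, NDUFV1 and NDUFC2 were not called. COX7B2, UQCRHL and ATP5F1D had no such peak in any library, although ATP5F1D was at 39.7 ± 3.41 CPM in shControl RNA. No count of this kind was made over all tested protein-coding genes. Their share with a canonical start peak in at least 2 libraries was also higher in shLOXL2 (82.8%, against 75.7% in shControl). The shLOXL2 lists are longer, and their part in these differences was not tested.

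Promoters of these genes are known for sites of NRF1, of ETS factors such as GABP and of YY1, which act on mitochondrial genes in general. The words searched on both strands were GCGCATG for NRF1, CCGGAAG for ETS, ATGGCGG for YY1, GGGCGGG for SP1, TATAAA for the TATA box and CCAAT for NF-Y; ATGGCGG and GGGCGGG can overlap in GGCGG. The RefSeq table held 70 of the 89 members, 65 of them tested. NRF1 words were in 23.1% of the tested members, 8.62% of tested protein-coding genes in the table and 5.3% of all its genes. ETS words were in 32.3%, 22.1% and 12.2%, and YY1 words in 30.8%, 12.2% and 6.66%. SP1 words went the other way, in 35.4%, 61.7% and 36.7%. CCAAT was in 36.9%, 43.2% and 39.7%, and TATAAA in 7.69%, 8.64% and 14.0%. A match is a run of letters and not a shown binding site.

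The YY1 word was unevenly spread over the complexes. It was in 14 of 30 tested complex I members of the table, 2 of 3 in complex II, 2 of 7 in complex III, 1 of 11 in complex IV and 1 of 14 in complex V. Of its 23 matches in tested members, 18 lay after the gene start, between bases 15 and 44, and 15 of these read ATGGCGG on the gene's own strand. That word begins with ATG, the letters of a start codon. Of the 20 tested members with the word in the window nearest their canonical start, 8 fell, with a median of -0.15 log2, and of the 44 without it 11 fell, with a median of -0.07. NRF1 words were in 14 members of that set, of which 6 fell (median -0.09), against 13 of 50 without it (median -0.10). The SP1 word gave the same split of falls as the YY1 word, 8 of 20 with it and 11 of 44 without, with medians of -0.11 and -0.10. For ETS words 5 of 21 with and 14 of 43 without fell, for CCAAT 6 of 22 and 13 of 42, and for TATAAA 0 of 4 and 19 of 60. Word and response were not tested against each other. Falls by word were counted for members only, and over all tested genes the share of falls was 21.3% (26.8% of abundant genes). The YY1 word was mostly in complex I members, so word and complex are not separated in these counts.

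The windows of COX6A1 and NDUFA5 are shown because they hold the most different words, 4 each, among members open in all 6 ATAC-seq libraries. COX6A1 encodes a small subunit of complex IV, and NDUFA5 an accessory subunit of the peripheral arm of complex I. They lie at chr12:120875666-120875965 (plus strand) and chr7:123197823-123198122 (minus strand) in GRCh37, with words in capitals. COX6A1 has 2 NRF1 words, 2 CCAAT words, 1 ETS word 13 bases before the start and 1 YY1 word 18 bases after it. NDUFA5 has 1 word each for NF-Y, NRF1, SP1 and YY1, the last 27 bases after the start. In RNA neither was called: COX6A1 was at 64.8 ± 4.62 and 59.9 ± 2.62 CPM, and NDUFA5 at 42.9 ± 3.47 and 41.7 ± 0.895 CPM.
COX6A1: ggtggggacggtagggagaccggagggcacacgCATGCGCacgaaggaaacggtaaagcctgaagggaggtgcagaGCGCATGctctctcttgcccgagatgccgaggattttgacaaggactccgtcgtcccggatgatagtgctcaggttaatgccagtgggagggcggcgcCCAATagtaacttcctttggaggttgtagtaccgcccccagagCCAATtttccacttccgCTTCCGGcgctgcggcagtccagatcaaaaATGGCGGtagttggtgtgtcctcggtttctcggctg
NDUFA5: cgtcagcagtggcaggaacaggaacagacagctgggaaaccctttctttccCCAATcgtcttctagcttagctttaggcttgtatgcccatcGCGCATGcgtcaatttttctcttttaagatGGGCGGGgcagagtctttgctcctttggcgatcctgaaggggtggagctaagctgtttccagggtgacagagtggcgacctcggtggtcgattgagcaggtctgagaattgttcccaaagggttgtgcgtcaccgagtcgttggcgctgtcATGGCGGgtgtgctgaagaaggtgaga

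**Figure D4:**
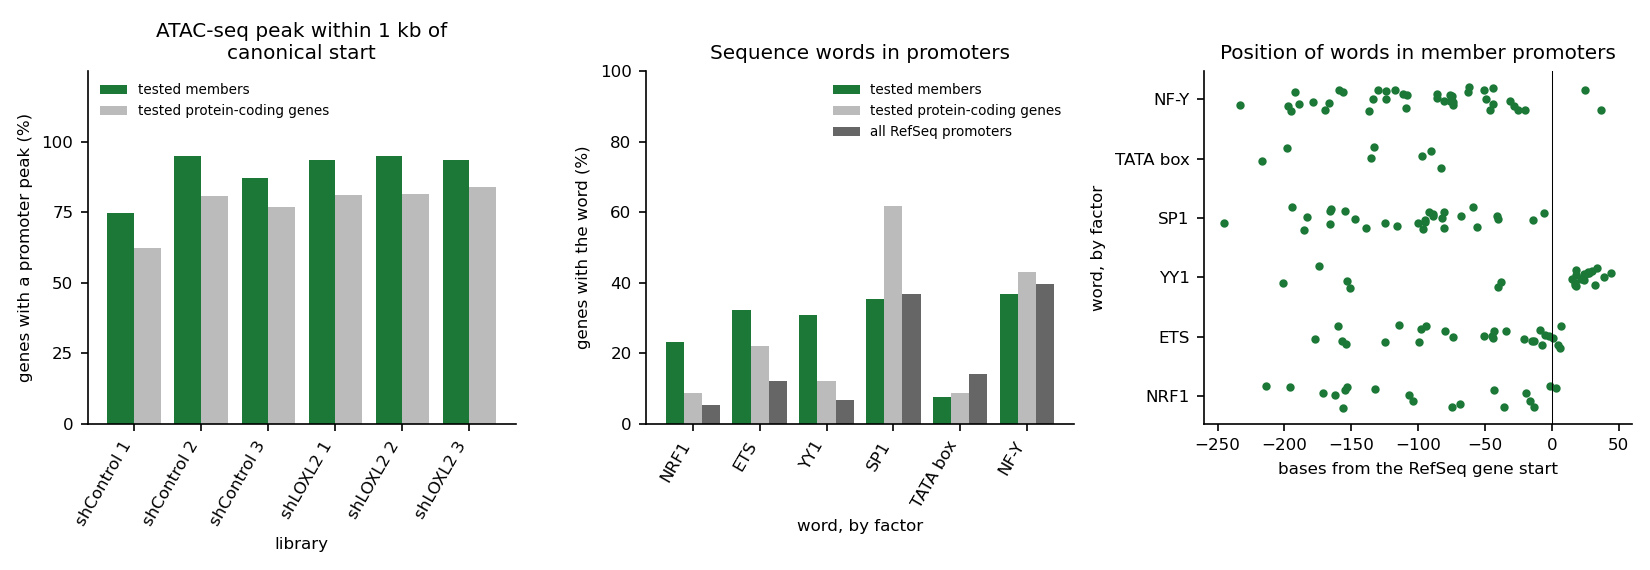
Left, percentage of tested members and of 12803 tested protein-coding genes with an ATAC-seq peak within 1 kb of the canonical start in each library. Middle, percentage of genes with each sequence word in the 300-base RefSeq window. Right, position of each match in member windows relative to the gene start, with YY1 words mostly at bases 15 to 44 after it; members are above other genes in every library and for NRF1, ETS and YY1 words, and below tested genes for SP1.

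Genes that work with these subunits were taken as lists, whose counts are to be read against the 21.3% of all tested genes called lower and the 21.6% called higher. Of 8 genes outside the symbol rule that belong to the chain or feed electrons into it, 4 fell and 2 rose. DHODH, the pyrimidine synthesis enzyme that feeds ubiquinone, fell by 0.43 on the log2 scale (SE 0.08), and GPD2, the glycerol phosphate dehydrogenase, by 0.32 (SE 0.06). CYCS, cytochrome c itself, went from 150 ± 20.1 to 120 ± 3.58 CPM (-0.33 log2), and CYC1, the cytochrome c1 of complex III, from 188 ± 8.99 to 156 ± 14.1 CPM (-0.27 log2). ETFA and ETFB, the electron transfer flavoprotein of fatty acid oxidation, rose by 0.18 and 0.28 log2.

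Among assembly factors of complex I, which help build it without staying in it, 7 of 18 fell and 1 rose. NDUFAF4, which acts on the early peripheral arm, went from 24.0 ± 1.34 to 18.4 ± 1.45 CPM (-0.39 log2, edgeR adjusted p 0.0016), NDUFAF5 fell by 0.37, and NUBPL, which delivers iron-sulfur clusters, rose by 0.29. For complex IV, 4 of 21 tested factors fell and 1 rose, a share of falls near that of all genes, and COX11, which delivers copper, went from 61.8 ± 3.36 to 39.0 ± 0.703 CPM (-0.66 log2, SE 0.05, edgeR adjusted p 4.03e-06). The fall of CMC2 was 0.41. For complex III, LYRM7, which hands over the Rieske protein, and TTC19 fell among 6, by 0.41 and 0.13 log2. SDHAF3 was the 1 of 4 complex II factors that fell (-0.42 log2). For complex V, TMEM70 fell (-0.24) and ATPAF1 rose (0.28) among 6. Of the 13 citric acid cycle genes outside complex II, 5 fell, led by FH (-0.34 log2) and SUCLA2 (-0.32), and 2 rose, OGDH and DLST.

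Of 13 regulators of mitochondrial biogenesis, 4 fell and 1 rose. NRF1 went from 26.8 ± 0.161 to 20.9 ± 0.953 CPM (-0.36 log2, SE 0.06, edgeR adjusted p 0.000556), and YY1 from 179 ± 4.06 to 149 ± 3.07 CPM (-0.27 log2, SE 0.04, edgeR adjusted p 0.000448). TFAM, which packages mitochondrial DNA, fell by 0.37, and GABPB1 by 0.25. GABPA, the DNA-binding partner of GABPB1, rose by 0.17. PPARGC1A, the coactivator PGC-1 alpha, was at 6.48 ± 1.27 and 7.15 ± 1.02 CPM and was not called. Of the 13 mitochondrially encoded subunits, 11 rose and none fell, with a median of 0.50 log2. The largest rise of the list was that of MT-ND1 of complex I, at 0.68 log2 (SE 0.10, edgeR adjusted p 0.000291). MT-CO3 of complex IV measured 3803, 4191 and 3437 CPM in shControl and 5247, 6370 and 5308 CPM in shLOXL2 (edgeR adjusted p 0.00031). Its direction was that of COX7C and opposite to that of COX8A, both nuclear-encoded members of the same complex. MT-ND6 had a value of -0.37 log2 with overlapping groups (edgeR adjusted p 0.0663). Without shLOXL2 replicate 2, which stood above the other shLOXL2 libraries in most of these genes, 11 rose, MT-ND6 was called lower at -0.61 log2, and the median was 0.36.

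**Figure D5:**
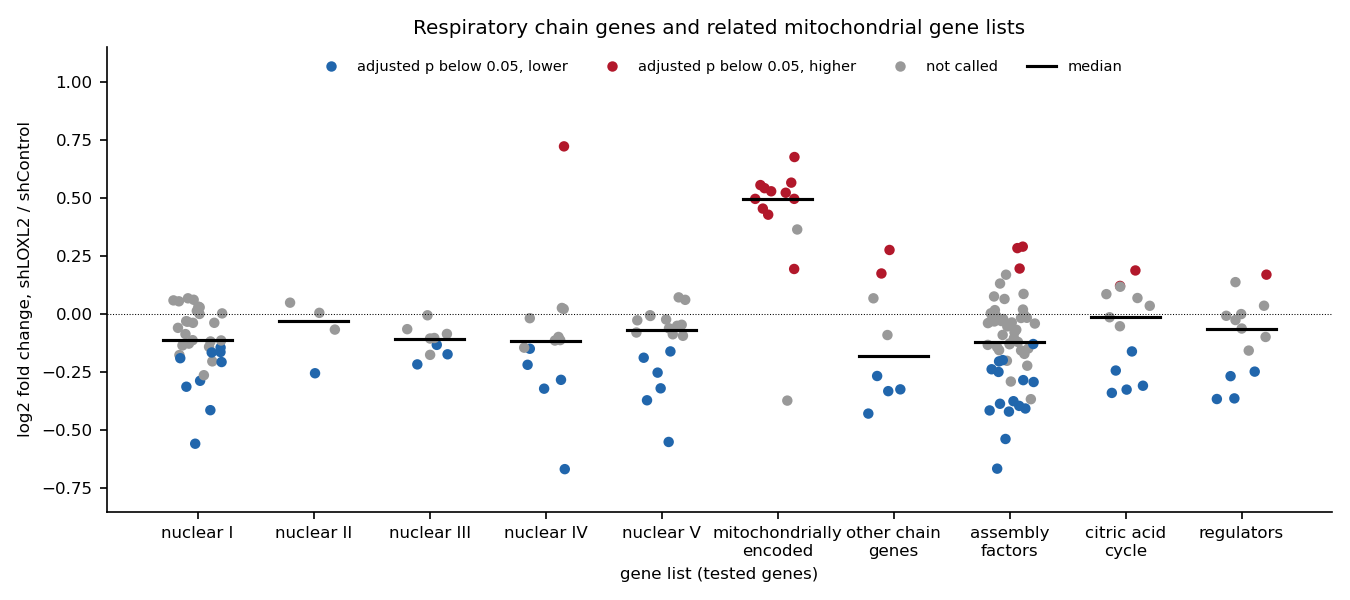
Log2 fold change of shLOXL2 over shControl (vertical axis) for nuclear members of each complex and for related gene lists; 1 point per tested gene shown, coloured by call, with the median as a black line. The mitochondrially encoded subunits have a median of 0.50, while the medians of complexes I to V lie between -0.11 and -0.03.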

How the data were processed

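RNA-seq and ATAC-seq of shControl and shLOXL2 cells (3 libraries each per assay) were used, grouped by the treatment labels; the ChIP-seq samples, and 1 member gene by name, are not reported here. The RNA files hold whole-number read counts per Ensembl gene, as the authors deposited them; the submitters' processing notes name STAR 2.7.6a, DESeq2 1.30.0 and GRCh37.p13, and the strand setting is not given in the sources used here. The ATAC files are peak lists, 1 per library, and the score of each peak is the authors' deposited value; the notes name Bowtie2 2.4.2, MACS2 2.2.7.1 and hg19, and a Tn5 shift of the reads is not given in the sources used here. Reads that STAR could not place uniquely are usually left out of such counts, which lowers genes with near-identical copies; whether this was so here is not given.

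Symbols and positions came from GENCODE v44lift37 (GRCh37), which named 96.1% of identifiers. Genes were kept by filterByExpr, scaled by TMM and compared with edgeR 4.0.16 in R 4.3.3 (glmQLFit, glmQLFTest), with Benjamini-Hochberg adjustment over all 15602 tested genes and a threshold of 0.05. The standard error is the log2 fold change over the square root of F. CPM are counts scaled to the TMM library size. On simulated counts for 15437 genes of this comparison with 200 changed, 65.4% of changes of 0.5 log2 and 81.9% of changes of 1 log2 were called, and 7.64% of calls were unchanged genes. A promoter peak overlaps 1 kb around a start; sequence windows came from a RefSeq promoter table (GRCh38.p14), and 69 of 70 members found in it were placed in GRCh37 by exact match. Python 3.11.15 with pandas 2.3.3 was used.

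Members and lists were chosen with earlier results of these data known. Named genes were the SDH, core, c-ring and F1 genes, the isoforms, UQCRC1, UQCRC2, UQCRFS1, COX4I1, NDUFA4, COX7A2L and ATP5IF1; up to 4 falls and rises per complex that were called with groups apart; the highest and lowest per length in each complex; and the 2 called genes with the smallest p of each related list. Other named genes were added after their values were seen. PECAM1 and SCO2, of the marker and assembly lists, were not matched by symbol and are not used here. No list was tested as a whole. Alternatives were DESeq2 1.42.0, limma-voom (limma 3.58.1), RLE scaling, no filter on low counts, a replicate block, GC and length corrections, a threshold of 0.01, pooled pseudogenes, NDUFA4 in complex I, each library left out, and other peak rules.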

Additional observations from a re-analysis of the deposited data

How the results depend on the processing

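Depth left 66 members with at least 1000 counts in every library, while NDUFV2, UQCRHL and NDUFA7 had few counts. Counting error and spread between libraries were not compared for each member. The 19 called members named by the rule kept their direction in every alternative run, 12 of them kept the call in all 15 alternatives of the fit, and 34 calls were lost among the others. Replicate numbers do not pair the libraries here (correlations of same-numbered deviations -0.05, -0.064 and -0.11). With the replicate block 17 members were lower and 1 higher, 0 in complex I were higher and 1 in complex III was lower. With the replicate block and GC correction together, 3 in complex V were lower. The length correction left 1 member higher (0 in complex I) and 3 lower in complex IV, and testing without a filter left 1 higher (0 in complex I). At an adjusted p below 0.01, 11 members were lower and 1 higher, with 3 lower in complex I (0 higher), 1 in complex III, 3 in complex IV and 3 in complex V. Leaving out 1 library gave 13 to 35 members lower and 1 to 2 higher. By complex the lower counts ranged from 4 to 14 in I (0 to 1 higher), 1 to 6 in III, 3 to 8 in IV and 3 to 6 in V, and the median of complex I from -0.124 to -0.0608 log2. RLE scaling, DESeq2, limma-voom and pooled pseudogenes moved no count by over 1.5 times. Peaks above the median score gave 36 members in shControl (45.6%, against 44.2% of all tested protein-coding genes) and 40 in shLOXL2 (50.6%, against 50.9%), and equal numbers of peaks 43 in shLOXL2 (54.4%, against 53.9%); the cause was not tested. Leaving out 1 library was also tried on the related gene lists after the data were seen, and gave 11 to 12 mitochondrially encoded subunits higher, 5 to 7 complex I assembly factors lower, 1 to 3 complex III factors lower and 4 to 5 biogenesis regulators lower.

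Among named members, signs changed only in 10 that were not called. GC correction gave ATP5F1A 0.0087, COX7A2L 0.016, NDUFS8 -0.029 and UQCR10 0.002 log2, and with the replicate block as well ATP5F1A 0.008, COX7A2L 0.016 and NDUFS8 -0.0304. The length correction gave ATP5F1C 0.0005, ATP5IF1 0.056, SDHA -0.029 and UQCR10 0.052. Adding pseudogene counts gave NDUFV2 0.032. Leaving out 1 library moved ATP5F1A between -0.032 and 0.025, ATP5IF1 between -0.032 and 0.027, COX7A2L between -0.066 and 0.0298, NDUFA1 between -0.036 and 0.085, NDUFS8 between -0.039 and 0.074, SDHA between -0.018 and 0.028, UQCR10 between -0.075 and 0.042, and UQCRHL between -0.37 and 0.24. Dividing by the canonical length raised the level per kilobase of UQCRHL to 2.34, NDUFV2 to 1.74, ATP5MG to 11.4, COX7B to 7.32, SDHC to 21.9, SDHB to 105, UQCR10 to 60.7 and ATP5F1B to 463 CPM.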

Other observations

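Many members start back to back with another gene, a layout looked at after the data were seen. A neighbour on the other strand started within 1000 bases of 25 of the 79 tested members (31.6%), against 1696 of 12803 tested protein-coding genes (13.2%). In 23 pairs both genes were tested. SDHD and TIMM8B, a chaperone of the mitochondrial intermembrane space whose start lies 117 bases from that of SDHD, were the only pair called in the same direction, at -0.25 and -0.24 log2. ATP5PF and GABPA, with starts 68 bases apart, were called in opposite directions (-0.16 and 0.17 log2). In 10 pairs only the neighbour was called, in 3 only the member, and in 8 neither. COX4I1 and EMC8, a subunit of the membrane protein insertase of the endoplasmic reticulum, start 151 bases apart, and EMC8 fell by 0.31 on the log2 scale while COX4I1 was not called (-0.10). NDUFB3 was lower by 0.56 log2 (-0.56), while HYCC2, 330 bases away, differed by 0.10 (edgeR adjusted p 0.279). UQCR10 and ZMAT5, 362 bases apart, had values of -0.0047 and -0.34, the latter called. Among all 23 tested neighbours 9 were called lower and 3 higher, against 21.3% and 21.6% of all tested genes. RPS28, a ribosomal protein gene 121 bases from NDUFA7, fell by 0.44 on the log2 scale.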
